A study of Mus musculus with 6 samples.

Results

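The cytosolic ribosomal protein genes were examined in LSK cells, the Lin- Sca-1+ c-Kit+ fraction of bone marrow that holds stem cells and multipotent progenitors. Members were taken by gene symbol alone, as symbols that open with Rpl or Rps and a digit together with *Rplp0*, *Rplp1*, *Rplp2* and *Rpsa*, leaving out the *Rps6k* kinases and pseudogenes marked "-ps". They were 61 of the 10528 genes with a tested probe, 26 with a symbol of the small (40S) and 35 of the large (60S) subunit, each read by its brightest probe. All 61 had a probe that was detected on at least 1 array, and 56 were detected in all 6 pools. The same symbols cover 95 genes in the RefSeq gene table used here, 89 of them protein coding. There were 3 pools of PU.1-deficient cells (*Spi1* fl/fl *MxCre*+) and 3 pools of wild-type cells (*Spi1* +/+ *MxCre*+). Each pool held cells of 15 to 20 C57BL/6 mice aged 6 to 12 weeks. Mice of both genotypes carried *MxCre*, a recombinase driven by an interferon-inducible promoter that is not restricted to LSK cells, and both were given 2 injections of polyIC, an interferon inducer, 3 days apart (5 µg per g body weight each). The methods give day 14 after the first injection for these cells.

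The ribosome is built from a small subunit that decodes mRNA and a large subunit that joins amino acids, and nearly every ribosomal protein is present as a single copy in it. Most of their mRNAs begin with a stretch of pyrimidines, the TOP motif, through which mTOR signalling adjusts their translation together. In blood, mutations of these genes in people cause Diamond-Blackfan anemia, in which erythroid precursors fail.

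Across the arrays, 15639 to 18174 probes were detected per pool and the median intensity was 89.5 to 116.5. *Spi1*, the gene of PU.1, had normalized log2 intensities of 6.62, 5.80 and 6.00 in the PU.1-deficient pools and 8.54, 8.51 and 8.69 in the wild-type pools (log2 fold change -2.44, adjusted p = 0.00112 from *limma*), and which exon this probe reads was not checked. *Kit*, the gene of the sorting marker c-Kit, was at 12.27, 11.88 and 12.18 in PU.1-deficient and 12.44, 12.52 and 12.67 in wild-type cells (adjusted p = 0.221, *limma*). On a wider list of 6 LSK marker genes, 3 were lower, namely *Cd34*, *Meis1* and *Slamf1*, which are not part of the LSK gate. *Ly6a*, the gene of Sca-1, was not among the probes tested. Other cell types' genes moved with genotype. Of 12 neutrophil markers 9 were higher, with a summed linear intensity of 158000 to 173000 in PU.1-deficient against 33600 to 60800 in wild-type pools. Of 8 erythroid markers 7 were lower, with sums of 1470 to 1890 in PU.1-deficient and 4860 to 9980 in wild-type pools, as were 6 of 6 megakaryocyte and 4 of 5 monocyte and dendritic cell markers. B cell markers were split (2 higher and 1 lower of 5), as were basophil and mast cell markers (2 higher and 1 lower of 6), and 0 of 2 T and NK cell markers passed, both close to background. The part of these cell types in the values below was not tested. In RNA from sorted pools, a change in the mix of cells and a change of RNA per cell cannot be told apart.

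Few ribosomal protein mRNAs passed the test between PU.1-deficient and wild-type LSK cells. Of the 61 genes, *Rpl3l* was higher and *Rpl13a* and *Rplp0* were lower. The remaining 58 did not reach an adjusted p under 0.05 over 22119 probes (*limma*). That is 4.92% of the members called, against 12.2% of all 10528 genes read by 1 probe each and 8.79% of all probes. Probe brightness is not matched in these shares, and 27 of the 61 had a mean log2 intensity of 14 or more. By probe, 10% of ribosomal and 7.99% of other probes were called under 8, and 25% and 10.8% from 8 to 12. From 12 to 14 the shares were 0% and 8.18%, and at 14 or more they were 0% in both. By direction, 1.64% of members were higher and 3.28% lower, against 6.61% and 5.59% of all genes and 4.89% and 3.91% of all probes. Over all called probes 55.6% were higher, a share that was 64.5% with arrays scaled to equal medians of the tested probes and 37.1% with equal medians of all probes on the array. At an unadjusted p under 0.05 there were 7 members (11.5%, against 27.1% of all genes). The log2 fold changes of 52 of 61 lay within 0.5 of 0, as did those of 7419 of all 10528 genes. Of the 61, 42 lay below 0 (68.9%, against 54.2% of all genes), and their median was -0.19 beside -0.04 for all genes. This direction depended on scaling. With arrays set to equal medians of the tested probes, the members' median was 0.12 where that of all tested probes was 0.11. At like brightness the medians still differed with that scaling. For ribosomal and other probes they were -0.22 and 0.15 at a mean log2 intensity under 8, and -0.50 and -0.02 from 8 to 12. From 12 to 14 they were 0.01 and 0.13, and at 14 or more 0.42 and 0.35. The pools of the genotypes did not overlap in 25 members (41%, against 34.5% of all genes).

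**Figure D1:**
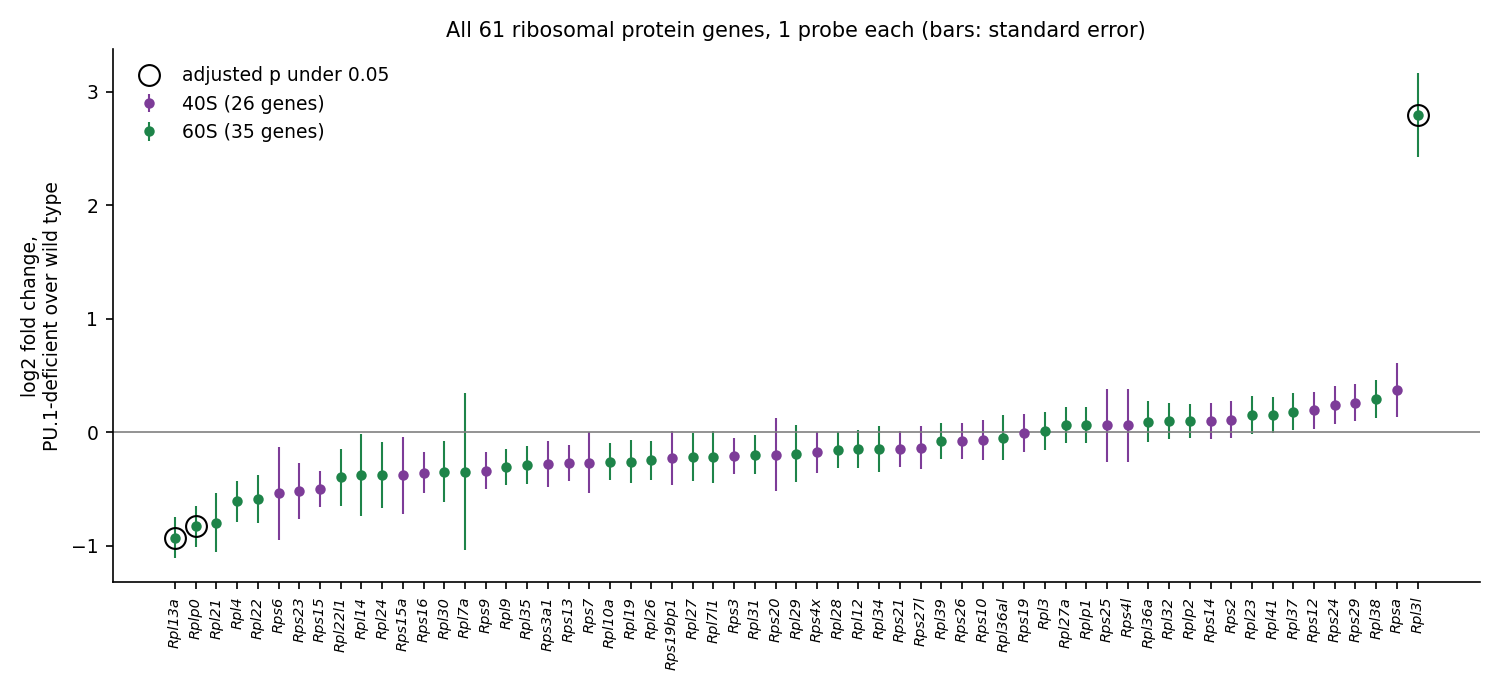
The log2 fold change of each of the 61 ribosomal protein genes (PU.1-deficient over wild type, 3 pools each, with its standard error) is ordered from lowest to highest, in violet for symbols of the 40S and in green for symbols of the 60S subunit. *Rpl3l* stands apart at 2.79. Within 0.5 of 0 lie 52 of 61 genes (7419 of all 10528 genes), a position that moves with the scaling of the arrays.

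*Rpl3l* encodes a form of the large-subunit protein L3 that is known from heart and skeletal muscle. Its normalized log2 intensity was 7.70, 8.08 and 6.58 in PU.1-deficient pools and 4.81, 4.51 and 4.66 in wild-type pools. It was detected in 3 of 3 PU.1-deficient and 0 of 3 wild-type pools, and the genotypes did not overlap. With the offset of 16, its PU.1-deficient mean was 5.57-fold above the detection floor of the wild-type arrays. The fitted difference between genotypes had an adjusted p of 0.00374 (*limma*). The ratio to the floor depends on the offset and is no lower bound under other settings. Raw intensities of *Rpl3l* were low, at 289.4, 208.9 and 199.4 in PU.1-deficient and 118.2, 108.5 and 91.0 in wild-type pools. *Rpl3*, the widely expressed gene of the same subunit position, was at 14.18, 14.37 and 14.18 in PU.1-deficient and 14.40, 14.24 and 14.08 in wild-type pools. Its log2 fold change was 0.01 with a 95% interval of -0.39 to 0.41. The *Rpl3l* call held under each of the 21 alternatives tried, while its fitted log2 fold change of 2.79 was 1.84 with an offset of 50 and 1.31 with no background correction.

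*Rpl13a*, a large-subunit protein that in human monocytic cells can leave the ribosome after interferon and silence inflammatory mRNAs, was the lowest member by fold change. Its log2 intensity was 10.39, 10.68 and 10.73 in PU.1-deficient pools and 11.61, 11.40 and 11.57 in wild-type pools, without overlap. The log2 fold change was -0.93 (standard error 0.18, adjusted p = 0.0179, *limma*), which leaves 0.526 of the wild-type signal. *Rplp0*, the base of the stalk that recruits elongation factors to the ribosome, was at 7.96, 8.22 and 7.78 in PU.1-deficient pools and at 8.77, 8.80 and 8.86 in wild-type pools. Its log2 fold change was -0.83 (standard error 0.18, adjusted p = 0.0299, *limma*). A second *Rplp0* probe, with a mean of 6.22, gave -0.19 (adjusted p = 0.727). The call on *Rpl13a* was lost on leaving out PU.1-deficient pool 1 (adjusted p = 0.0738) or pool 3 (0.0535), and likewise for wild-type pool 2 (0.0613) and pool 3 (0.0893). For *Rplp0* the adjusted p was 0.108 and 0.116 without PU.1-deficient pools 1 and 3, and 0.0505, 0.121 and 0.131 without wild-type pools 1, 2 and 3. With equal medians of the tested probes neither passed, with log2 fold changes of -0.77 for *Rpl13a* (adjusted p = 0.115) and -0.83 for *Rplp0* (0.083).

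**Figure D2:**
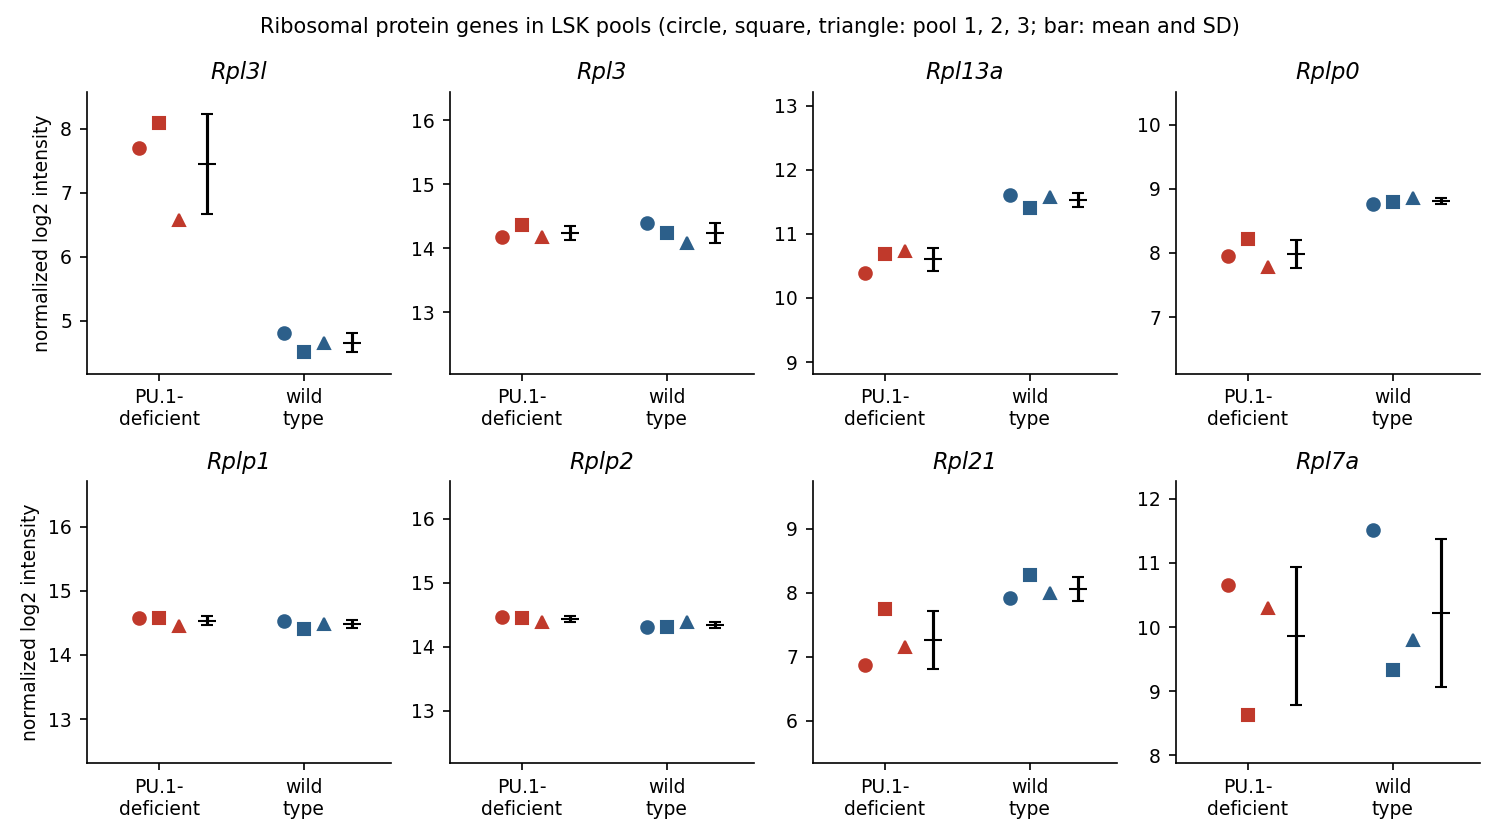
Normalized log2 intensity of 8 ribosomal protein genes in each pool, with PU.1-deficient pools in red and wild-type pools in blue, pool 1 as a circle, 2 as a square and 3 as a triangle, beside the mean and SD of the 3 pools (each panel spans the same number of log2 units). The genotypes are apart for *Rpl3l*, *Rpl13a*, *Rplp0* and *Rpl21* and overlap for *Rpl3*, *Rplp1*, *Rplp2* and *Rpl7a*.

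Closest to the threshold, and named after their values were seen, were *Rpl4*, *Rps15* and *Rpl21*. *Rpl4*, a protein that lines the exit tunnel of the large subunit, was at 10.32, 10.40 and 10.70 in PU.1-deficient pools and 11.02, 11.17 and 11.06 in wild-type pools (log2 fold change -0.61, adjusted p = 0.0851). *Rps15*, a small-subunit protein needed in yeast and human cells for export of the subunit from the nucleus, was at 12.62, 12.73 and 12.70 in PU.1-deficient and 13.14, 13.21 and 13.21 in wild-type pools (log2 fold change -0.50, adjusted p = 0.104). *Rpl21*, of the large subunit, was at 6.87, 7.75 and 7.15 in PU.1-deficient and 7.91, 8.27 and 8.0 in wild-type pools (log2 fold change -0.80, adjusted p = 0.115). In all 3 the genotypes did not overlap.

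The other proteins of the stalk gave different values from *Rplp0*. *Rplp1* and *Rplp2* encode the acidic proteins that bind *Rplp0* protein in pairs. *Rplp1* had the brightest probe of all members, at 14.58, 14.58 and 14.45 in PU.1-deficient and 14.53, 14.41 and 14.49 in wild-type pools. *Rplp2* was at 14.47, 14.44 and 14.39 in PU.1-deficient and 14.31, 14.31 and 14.39 in wild-type pools. Neither passed the test, with log2 fold changes of 0.06 (95% interval -0.31 to 0.42) and 0.10 (-0.26 to 0.46). Whether the stalk genes differed from one another in their response was not tested.

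By subunit of the symbol, 0 of 26 small-subunit and 3 of 35 large-subunit genes passed, beside 12.2% of all genes, with medians of -0.16 and -0.20. These groups count relatives such as *Rps19bp1* and *Rps4l*, described below, and *Rpl3l* among the 3 is no standard subunit. The counts are small, and a difference between the subunits was not tested. The lowest small-subunit value was *Rps6*, the substrate of the S6 kinases, at -0.54 (adjusted p = 0.531). By brightest probe, 0 of the 13 measured members on a list of Diamond-Blackfan anemia genes were called, beside 12.2% of all genes. The list is too small to set apart from that share. A dimmer probe of *Rps24*, a gene of this list, was called lower and is described below. The 13 had a median of -0.20, with values between -0.38 and 0.26. Among these, *Rps19*, the gene most often mutated in that disease, was at 14.24, 14.35 and 14.51 in PU.1-deficient and 14.46, 14.28 and 14.40 in wild-type pools (log2 fold change -0.01, 95% interval -0.40 to 0.37). The lowest on that list was *Rps15a*, at 6.34, 7.12 and 6.54 in PU.1-deficient and 6.39, 7.20 and 7.54 in wild-type pools (log2 fold change -0.38). The highest was *Rps29*, at 14.42, 14.51 and 14.36 in PU.1-deficient and 14.21, 14.11 and 14.19 in wild-type pools (0.26). *Rps26* gave -0.08, *Rps10* -0.07, *Rps7* -0.27, *Rpl26* -0.25, *Rpl35* -0.29 and *Rpl9* -0.31. The next brightest probes after *Rplp1* were those of *Rps2* and *Rps12*, with log2 fold changes of 0.11 and 0.19. The dimmest were *Rpsa* (0.37), *Rps20* (-0.20) and *Rps23* (-0.52), each undetected in 1 of the 6 pools, and none of these 5 passed. Probe brightness also depends on the probe, so it does not order the genes by mRNA level.

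Of the 61 members, 7 carry a ribosomal symbol without being a standard subunit, and of these *Rpl3l* was called. *Rpl22l1*, a paralog that can replace *Rpl22* in the ribosome, had a log2 fold change of -0.40 (adjusted p = 0.444). *Rpl22*, whose loss in mice blocks development of the αβ lineage of T cells, was at 10.47, 10.19 and 10.36 in PU.1-deficient and 11.24, 10.95 and 10.60 in wild-type pools, without overlap, but did not pass (log2 fold change -0.59, adjusted p = 0.156). *Rps27l*, in human cells a p53-inducible relative of the small-subunit gene *Rps27*, was at 12.81, 12.74 and 12.80 in PU.1-deficient and 13.11, 12.62 and 13.05 in wild-type pools (log2 fold change -0.14). *Rpl7l1*, a relative of *Rpl7*, gave -0.22. *Rps4l*, annotated by RefSeq as a transcribed pseudogene, gave 0.06. *Rps19bp1*, which encodes a protein that binds RPS19 and is no ribosomal protein, gave -0.23. *Rpl36al*, an autosomal copy of *Rpl36a*, gave -0.05.

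X-linked members were compared beside *Xist*, the noncoding RNA that coats an inactive X, because the pools differed in it. *Xist* was at 9.93, 10.01 and 11.06 in PU.1-deficient and 4.48, 4.48 and 5.18 in wild-type pools, detected in 3 of 3 and 1 of 3. The measured X-linked ribosomal protein genes were *Rpl36a* (log2 fold change 0.09), *Rpl39* (-0.08) and *Rps4x* (-0.18), the X-linked gene of the small-subunit protein S4. None of the 3 passed and in each the genotypes overlapped. The sex of the pooled mice is not given in the sources used here. The *Xist* difference splits the pools exactly as genotype does. Its part in any value of this report was not tested and cannot be told apart from genotype.

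Log2 fold changes differed with probe brightness, at limits chosen after the values were seen. The 27 members with a mean log2 intensity of 14 or more had a median of 0.01, with 0 calls and all values between -0.36 and 0.29. With equal medians of the tested probes, the probes of that range moved to a median of 0.42 for ribosomal protein genes and 0.35 for others. Small shifts in both directions were seen among these, in genes named after their values were seen. *Rpl9* was at 14.27, 14.16 and 14.31 in PU.1-deficient and 14.55, 14.60 and 14.52 in wild-type pools. *Rps9*, whose yeast counterpart bears on the accuracy of decoding, was at 14.06, 14.08 and 14.18 in PU.1-deficient and 14.35, 14.45 and 14.56 in wild-type pools. *Rpl38*, which in mouse embryos favours translation of Hox mRNAs, was at 14.34, 14.46 and 14.30 in PU.1-deficient and 14.26, 13.96 and 14.01 in wild-type pools. None of these 3 overlapped between genotypes and none passed, with adjusted p of 0.321, 0.278 and 0.395 (*limma*). The signals of the 27 lay at the top of the arrays, never more than 0.93 below the highest normalized value of 14.67. The 17 members from 12 to 14 had a median of -0.22, the 8 from 8 to 12 a median of -0.50, and the 9 under 8 a median of -0.23. All 8 genes from 8 to 12 lay below 0, namely *Rpl13a*, *Rplp0*, *Rpl4*, *Rpl22*, *Rpl22l1*, *Rpl30*, *Rpl7a* and *Rpl7l1*.

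The comparison was repeated over all probes at the same limits. These probes include the brightest probes of the 8 genes above, so it is no separate observation. Between 8 and 12, the 16 probes of 14 ribosomal protein genes had a median log2 fold change of -0.59, beside -0.07 for the 6624 other probes of that brightness. All 16 lay below 0, against 56.9% of the others, and 4 of the 16 (25%) were lower at the threshold, against 4.24%. The difference of medians was -0.52 and ran from -0.58 to -0.36 under the alternatives, always with the ribosomal probes lower. At 14 or more, the 30 ribosomal probes had a median of 0.02 and the 78 others -0.04, and 0 of either were called. From 12 to 14 the medians were -0.26 for 20 ribosomal probes and -0.11 for 379 others, and under 8 they were -0.31 for 20 and -0.03 for 14952.

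**Figure D3:**
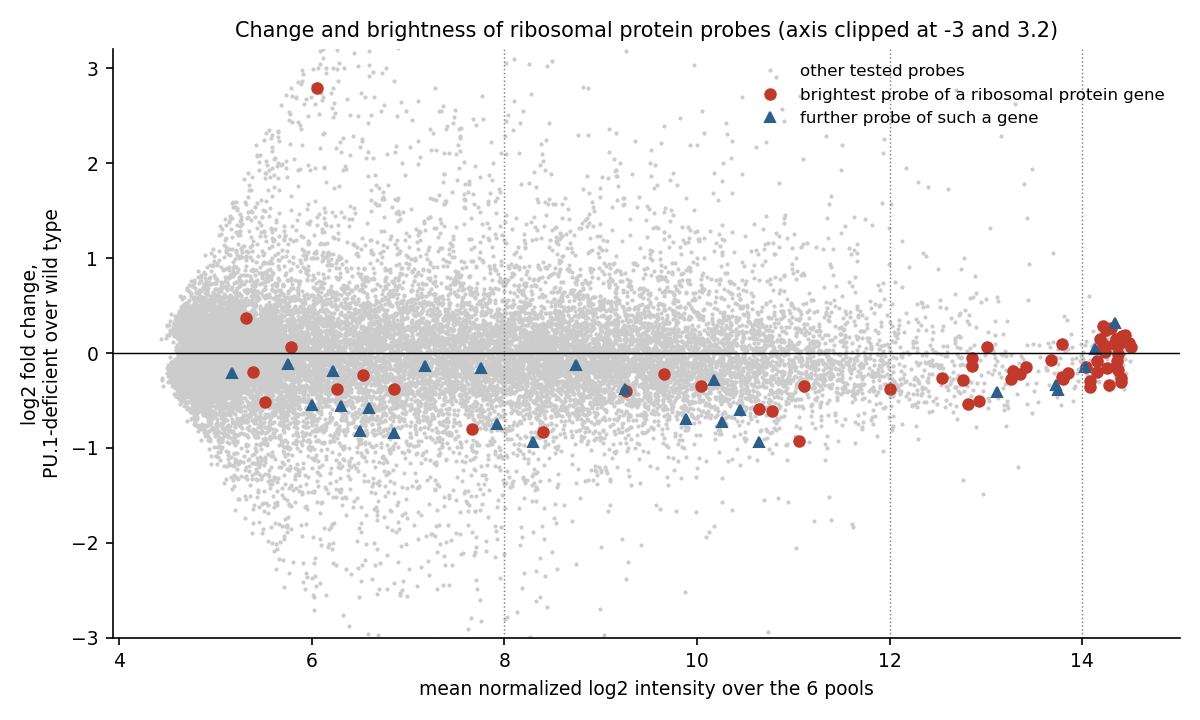
Log2 fold change (PU.1-deficient over wild type) of every tested probe against its mean normalized log2 intensity over the 6 pools, with the brightest probe of each ribosomal protein gene as a red circle, its further probes as blue triangles and other probes in grey; dotted lines stand at 8, 12 and 14. All 16 ribosomal probes between 8 and 12 lie below 0, and those at 14 or more lie around 0, where equal medians of the tested probes put them at a median of 0.42.

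Probes of the same gene could disagree. For *Rpl27a*, a large-subunit gene with 4 probes, the brightest was at 14.16, 14.34 and 14.26 in PU.1-deficient and 14.26, 14.24 and 14.07 in wild-type pools (log2 fold change 0.06). Another probe of *Rpl27a* was at 10.10, 10.08 and 10.32 in PU.1-deficient and 11.06, 11.05 and 11.21 in wild-type pools, without overlap. It gave -0.94 (adjusted p = 0.0127, *limma*), and the remaining *Rpl27a* probes gave -0.15 and -0.56. *Rps24*, a small-subunit gene on the Diamond-Blackfan list, showed the widest span. Its brightest probe gave 0.24, the next -0.13 (adjusted p = 0.744), and the dimmest of the 3 gave -0.94 (adjusted p = 0.0311), at 7.84, 7.71 and 7.94 in PU.1-deficient and 8.46, 8.78 and 9.06 in wild-type pools. *Rpl21* was the reverse case, with 3 probes that gave -0.80, -0.84 and -0.82. Only the dimmest of these *Rpl21* probes passed (adjusted p = 0.0226), at 5.98, 6.13 and 6.18 in PU.1-deficient and 7.05, 6.85 and 6.84 in wild-type pools.

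In 5 members the probes differed in sign, namely *Rps24*, *Rpl27a*, *Rpl38* (0.29 and -0.38), *Rps2* (0.11 and -0.39) and *Rpl23* (0.15, 0.04, -0.69 and -0.12). Of the 18 members with several probes, the brightest lay above the mean of the others in 12 (66.7%), against 42.9% of 4046 other genes with several probes. Where the brightest had a mean of 12 or more, this was so in 11 of 13 members (84.6%), with a median difference of 0.42, against 44.2% of 138 other genes with a median difference of -0.02. Calls by brightest probe leave out these lower values of further probes. Over all 86 probes, 1 was called higher and 5 lower. Of all tested probes 4.89% were higher and 3.91% lower, and 8.79% were called in either direction. Ribosomal protein genes have many processed pseudogenes, and which transcripts each probe can bind was not checked.

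**Figure D4:**
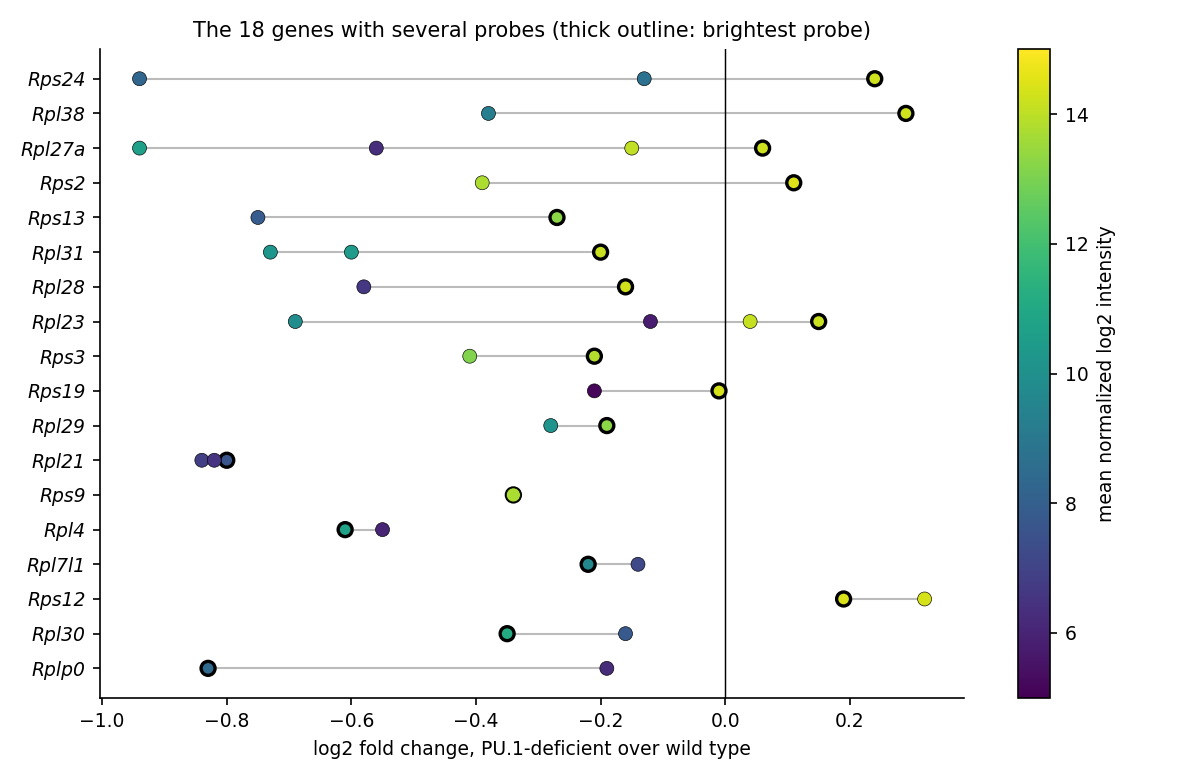
Log2 fold change (PU.1-deficient over wild type) of each probe of the 18 ribosomal protein genes that had several, coloured by mean normalized log2 intensity, the brightest probe of a gene with a thick outline. In *Rps24*, *Rpl38*, *Rpl27a*, *Rps2* and *Rpl23* the brightest probe lies above 0 and a dimmer one below it, with 0 set by quantile normalization.

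The median within-genotype SD was 0.15 for ribosomal protein genes beside 0.26 over all genes, and it differed with brightness. At a mean of 14 or more it was 0.09 for 27 members and 0.13 for 16 other genes, from 12 to 14 it was 0.21 and 0.17, from 8 to 12 it was 0.27 and 0.22, and under 8 it was 0.46 and 0.31. *Rpl7a*, singled out after its values were seen, had the largest of the 61 at 1.12. It was at 10.66, 8.63 and 10.29 in PU.1-deficient and 11.52, 9.33 and 9.79 in wild-type pools, and its 95% interval ran from -1.95 to 1.25. *Rps6*, with an SD of 0.63, was at 13.11, 11.70 and 12.82 in PU.1-deficient and 13.65, 12.69 and 12.92 in wild-type pools. The share of all summed signal that the members took was 5.99%, 6.65% and 5.34% in PU.1-deficient and 5.83%, 5.11% and 5.55% in wild-type pools, so the genotypes overlapped. In 13 members (21.3%, against 17.8% of all genes) pool 2 was the lowest of the PU.1-deficient pools and pool 1 the highest of the wild-type pools, and in 10 of the 61 (16.4%, against 8.22%) they were the lowest and highest of all 6. Without both of these pools, an alternative added after the data were seen, 3 members were higher (*Rpl3l*, *Rpl7a* and *Rps4l*) and 5 lower (*Rpl13a*, *Rpl21*, *Rplp0*, *Rps15* and *Rps15a*). Calls rose over the whole array in that setting, to 2865 higher and 2953 lower of 22119 tested probes, from 1081 and 864.

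Genes that make, assemble and use ribosomes were described from lists. Of 81 ribosome assembly factors tested, 0 were higher and 6 lower, with a median of -0.44. The 7.41% lower stand beside 5.59% of all genes, and the 71 below 0 (87.7%) beside 54.2%. The 6 were *Rrp12* (-0.90), *Ncl* (-0.89), *Ddx21* (-0.77), *Noc2l* (-0.74), *Mdn1* (-0.71) and *Rpf2* (-0.65). *Ncl* encodes nucleolin, an abundant protein of the nucleolus, and was at 9.80, 10.14 and 10.19 in PU.1-deficient and 10.73, 11.06 and 11.01 in wild-type pools. *Rrp12*, needed in yeast for export of preribosomes, was at 8.87, 9.18 and 9.24 in PU.1-deficient and 9.98, 10.05 and 9.96 in wild-type pools. In both the genotypes did not overlap. The count of 6 fell to 0 when PU.1-deficient pool 1 or 3 was left out, likewise for wild-type pools 2 and 3, and with equal medians of the tested probes, where the median of the list was -0.36 beside 0.11 for all tested probes.

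Calls in other lists stand beside 12.2% of all genes called. Counts of 0 or 1 in lists of 14 to 18 genes are too small to set apart from that share. The RNA polymerase I machinery, which makes ribosomal RNA, had 0 calls of 15 and a median of -0.29. Elongation and termination factors had 0 of 14 (-0.26), initiation factors 0 of 32 (-0.19) and mitochondrial ribosomal proteins 0 of 72 (-0.15). Of 18 other TOP mRNAs tested, a list that shares genes with the factors above, *Snhg12* was lower at -0.84 (adjusted p = 0.0400, *limma*) and the median was -0.38. The share lower was 5.56%, beside 5.59% of all genes. The *Snhg12* call was lost when any 1 of the 6 pools was left out.

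**Figure D5:**
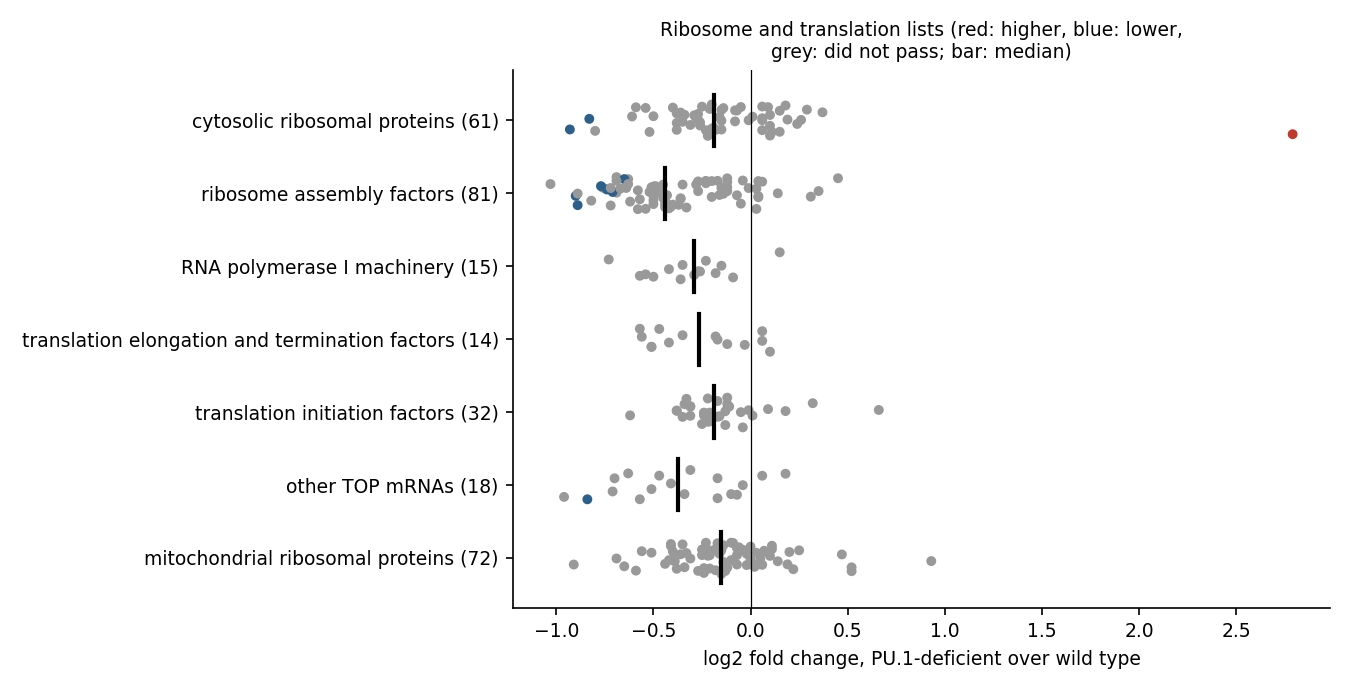
Log2 fold change (PU.1-deficient over wild type, 1 probe a gene) of the genes in 7 lists, with the number tested in brackets, genes past the threshold in red (higher) or blue (lower), others in grey, and the median as a bar. Assembly factors have the lowest median at -0.44 with 6 genes lower, and ribosomal proteins a median of -0.19, which was 0.12 with equal medians of the tested probes.

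Among 15 regulators of TOP mRNAs and of ribosomal RNA supply, 3 were higher (20%, against 6.61% of all genes) and 0 lower. The list had a median of -0.16 with 10 genes below 0, among them *Myc* at -0.62 (adjusted p = 0.700) and *Mtor* at -0.25. All 3 that were higher encode partners of Max that compete with Myc and repress its targets. *Mxd4* was at 11.18, 11.73 and 11.11 in PU.1-deficient and 9.64, 10.26 and 10.21 in wild-type pools (log2 fold change 1.31, adjusted p = 0.0195, *limma*). *Mxi1* gave 1.21 (adjusted p = 0.00642) and *Mxd1* 0.92 (0.0191), without overlap of the genotypes. A single gene of the list was called when any of PU.1-deficient pools 1 and 3 and wild-type pools 2 and 3 was left out. Of 14 p53 targets that respond when ribosome assembly is disturbed, 3 were higher (21.4%, against 6.61% of all genes) and 0 lower. Their median was 0.19 and 5 lay below 0, with *Zmat3* at -0.61 (adjusted p = 0.193) and *Mdm2*, the main brake on p53, at 0.13 (0.857). *Cdkn1a*, an inhibitor of the cell cycle, was at 8.54, 8.83 and 8.14 in PU.1-deficient and 7.11, 7.21 and 7.25 in wild-type pools (log2 fold change 1.31, adjusted p = 0.00920). *Fas*, a death receptor, had no detected signal on the wild-type arrays (adjusted p = 0.000443, *limma*). With the offset of 16, on which this ratio depends, the PU.1-deficient mean of *Fas* was 4.27-fold above their floor. *Gtse1*, a p53-binding protein of dividing cells, gave 0.87 (adjusted p = 0.0359, *limma*). Of these p53 targets 2 were called when any pool other than PU.1-deficient pool 3 was left out. The neutrophil and erythroid marker sums given above differed between the same pools, and their part in these lists was not tested.

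Promoters from RefSeq on the GRCm38.p6 build, 250 bases before to 50 after an annotated start, were at hand for 51 of the 61 members. A C followed by at least 4 further C or T, read on the strand of the gene, lay within 5 bases of a start in 24 of the 51 members (47.1%), against 21.5% of 17492 protein-coding genes. Such a run could be part of a longer stretch of C and T that begins further from the start. Within 20 bases it was found in 40 members (78.4%), against 54.0%. Windows of 10 bases before and 20 from the start onward are given for the called members, for *Rpl27a* and *Rps24*, whose probes disagreed, and for *Rps6*, the lowest of the small subunit, with the run nearest the start in capitals.
Rpl13a: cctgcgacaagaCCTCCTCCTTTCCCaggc
Rplp0: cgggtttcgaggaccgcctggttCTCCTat
Rpl3l: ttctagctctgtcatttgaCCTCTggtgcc
Rpl27a: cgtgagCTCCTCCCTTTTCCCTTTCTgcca
Rps24: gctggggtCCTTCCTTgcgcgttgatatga
Rps6: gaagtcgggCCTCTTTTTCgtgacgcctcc

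These windows lie at chr7:45128726-45128755 on the minus strand for *Rpl13a*, chr5:115559457-115559486 (plus) for *Rplp0*, chr17:24727816-24727845 (plus) for *Rpl3l*, chr7:109519185-109519214 (plus) for *Rpl27a*, chr14:24490668-24490697 (plus) for *Rps24* and chr4:86857348-86857377 (minus) for *Rps6*. *Rpl13a* has a run of 14 bases and *Rpl27a* of 20, while *Rplp0* and *Rpl3l* have 5-base runs that begin 14 and 10 bases from the start. *Rpl3l* and *Rps24* each have a further annotated start that is not shown. The 24 members with a run within 5 bases had a median log2 fold change of -0.16 and the 27 without it -0.22, both with quantile normalization.

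Other letters were searched on both strands of the whole window. The letters CCGGAAGT, which contain the GGAA core of ETS factors, were in 10 of 51 members (19.6%), against 5.69% of protein-coding genes. The 10 were *Rpl19*, *Rpl26*, *Rpl31*, *Rpl35*, *Rpl37*, *Rpl41*, *Rps25*, *Rps27l*, *Rps6* and *Rpsa*, and none of these was called. GAGGAAGT, letters of the kind PU.1 binds, were in 3 members (5.88%, against 3.64%), namely *Rpl13a*, which was called lower, and *Rpl35* and *Rpl36a*, which were not called. AAGATGGCG was found in 2 (3.92%, against 2.14%) and TATAAA in 6 (11.8%, against 14.8%). CCGGAAGT and GAGGAAGT share their last 6 letters but cannot match at the same place. A match describes the letters only.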

How the data were processed

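The deposited intensities, as the authors exported them, hold background and are not normalized. The detection p-values deposited beside them stand under exchanged headings, which the value ranges show. The deposited log2 values were made by the authors with neqc of *limma*. Intensities were normalized again with neqc (offset 16, background from detection p-values, quantile) in *limma* 3.58.1 under R 4.3.3, and differed from the deposited log2 values by at most 0.026. Probes with a detection p under 0.05 on at least 1 array (22119 of 45281) were fitted by genotype with lmFit and eBayes, with Benjamini-Hochberg adjustment over all of them. Chip and batch are not given in the sources used here, and neither was a term. A gene was read by its brightest probe, and 16494 tested probes had 1 gene name in the platform annotation. Members and lists were chosen with earlier results of these data known. Named genes were members past the threshold, the 3 brightest and 3 dimmest, stalk, X-linked and non-standard members with their parent genes, members whose probes differed in call or sign, and up to 3 called genes a list. *Mdm2*, *Mdn1*, *Mtor*, *Myc*, *Noc2l*, *Rpf2*, *Rpl7a*, *Rps6*, *Zmat3* and others in counts were named after their values were seen. Scaling, background, filter, probe choice, weights, block and left-out pools were varied. The number of arrays limits the precision. The code was tested on simulated data.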

Additional observations from a re-analysis of the deposited data

How the results depend on the processing

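The members' median of -0.19 moved to 0.12 with equal medians of the tested probes and 0.07 with equal medians of bright probes not named for a member, to -0.28 with no normalization between arrays, to -0.23 with either the mean over probes or the dimmest probe, to -0.08 with array weights and to -0.06 without PU.1-deficient pool 2 together with wild-type pool 1. Leaving out 1 pool gave -0.21 to -0.12. The cause was not tested. The 2 members called lower became 0 with equal medians of the tested probes or no normalization, 4 with no background correction or an offset of 50, 8 with array weights (with 2 higher) and 5 without both of those pools (with 3 higher), and 0 to 3 without 1 pool. Over all probes, 1081 higher and 864 lower became 515 lower with equal medians of the tested probes, 526 higher with equal medians of all probes on the array, 316 higher and 508 lower with no normalization, 3189 and 4120 with array weights and 2865 and 2953 without both pools. Leaving out 1 pool gave 606 to 1014 higher and 298 to 1096 lower. The gap of ribosomal probes from others at a mean of 8 to 12 was -0.36, in place of -0.52, with array weights and without both pools.

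Pools with the same number were not shown to be paired, since the correlations of their deviations were 0.72, 0.61 and -0.15. With the replicate block, 1681 probes were lower and 1596 higher, and *Rpl21* also passed as lower (adjusted p = 0.0223). No other call on a named member changed with the block.

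Several named members that did not pass changed sign. With equal medians of the tested probes *Rpl36al* was 0.23, *Rps27l* 0.12, *Rps4x* 0.21, *Rps19* 0.41 and *Rpl39* 0.36, and with bright other probes 0.18, 0.07, 0.15, 0.36 and 0.31 in that order. With equal medians of all probes *Rps4l* was -0.06, *Rps19* 0.09, *Rpl39* 0.04 and the median of p53 targets -0.07. With no normalization *Rpl36a* was -0.07, *Rps4l* -0.15 and *Rps19* 0.01. Array weights gave *Rpl7l1* 0.12, *Rpl36al* 0.03, *Rpl36a* -0.16, *Rps19bp1* 0.05 and *Rps19* 0.11, and leaving out both pools gave *Rpl36al* 0.14, *Rpl36a* -0.05, *Rps19bp1* 0.09 and *Rps19* 0.03. The mean over probes gave *Rps2* -0.14, *Rpl27a* -0.40, *Rps24* -0.28, *Rpl23* -0.15 and *Rpl38* -0.04, and the dimmest probe -0.39, -0.56, -0.94, -0.12 and -0.38 in that order. Without 1 pool, *Rpl3* ran from -0.07 to 0.09, *Rpl36al* from -0.19 to 0.11, *Rps19* from -0.09 to 0.05, *Rps19bp1* from -0.39 to 0.01, *Rps20* from -0.51 to 0.05, *Rps4l* from -0.14 to 0.41 and the median of the regulators of TOP mRNAs from -0.21 to 0.11. Equal medians of all probes, the dimmest probe and the removal of both pools were chosen after seeing the data.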
